A study of Mus musculus with 9 samples.

Results

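The chemosensory receptors of the Vmn1r, Tas1r, Tas2r and Taar families were examined as a set of genes known mostly from sensory cells of the nose and tongue, in arrays hybridised with RNA of mouse cerebral cortex. Members were all genes measured by a probe set whose single platform symbol begins with one of these 4 names followed by a digit, and of several probe sets per gene the one with the highest mean of the 9 arrays was kept. This gave 229 of 22180 genes: 176 Vmn1r, 35 Tas2r, 15 Taar and 3 Tas1r genes. All 229 symbols matched a RefSeq gene of the same name. The rule for members uses symbols, and measured values only for the choice between probe sets of 3 genes with 2 probe sets each.

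RNA came from the anterior cingulate cortex (dissected between 1.34 and -0.5 mm relative to bregma) of C57BL/6J mice, an inbred laboratory strain, with 3 Affymetrix arrays per group. Ketamine, an antagonist of NMDA-type glutamate receptors, was injected intraperitoneally at 3 mg/kg at ZT5, where ZT counts hours after lights on. Sleep-deprived mice were kept awake between ZT0 and ZT12 by a rotating bar in a circular cage, with no injection recorded in the labels. Control mice were injected intraperitoneally with saline at ZT5, and tissue of all groups was collected at ZT13. The sleep-deprived mice thus differ from the saline mice in the recorded injection as well as in sleep. The titles call the replicates biological.

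Vmn1r genes encode type 1 vomeronasal receptors, which sensory neurons of the vomeronasal organ use to detect pheromones and other social odours, typically 1 receptor per cell. Taar genes encode trace amine-associated receptors. Most of them are odorant receptors of the main olfactory epithelium, while Taar1 is known from monoamine neurons of the brain rather than from the nose. Tas1r genes encode the subunits of the sweet and umami taste receptors, with Tas1r3 shared by both, and Tas2r genes encode the bitter taste receptors.

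The sequence before these genes was poorer in CpG and in G and C than that of all genes. RefSeq (GRCm38.p6) windows of 250 bases before to 50 after the annotated start were found for 199 of the 229 receptors. They held a median of 1 CpG dinucleotide and 36.0% G and C, against 7 CpG and 52.7% over 27025 windows of all genes. The annotated start was itself an ATG in 171 of the 199 receptor windows (85.9%), against 6.75% of all windows, so for most receptors the annotation begins at the coding sequence and the window need not hold the true promoter. TATAAA, searched on both strands, occurred in 38.7% of receptor windows and 14.2% of all windows. The Tas1r windows were the exception, with a median of 5 CpG, 56.3% G and C and no ATG at the start. The windows below belong to the brightest receptor (Vmn1r233, chr17:20994637-20994936, minus strand), the receptor with the smallest p in any comparison (Vmn1r33, chr6:66612519-66612818, minus strand), the brightest bitter receptor (Tas2r134, chr2:51627261-51627560, plus strand) and an umami receptor subunit (Tas1r1, chr4:152038441-152038740, minus strand). They are written 5′ to 3′ along the gene, and capitals mark CpG dinucleotides, of which these windows hold 0, 2, 3 and 5 in that order.
Vmn1r233: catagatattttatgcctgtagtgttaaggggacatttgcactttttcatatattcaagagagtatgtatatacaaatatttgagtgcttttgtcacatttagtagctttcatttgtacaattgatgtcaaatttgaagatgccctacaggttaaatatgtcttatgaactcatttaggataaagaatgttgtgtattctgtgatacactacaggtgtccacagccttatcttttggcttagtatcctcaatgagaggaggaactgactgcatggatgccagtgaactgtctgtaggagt
Vmn1r33: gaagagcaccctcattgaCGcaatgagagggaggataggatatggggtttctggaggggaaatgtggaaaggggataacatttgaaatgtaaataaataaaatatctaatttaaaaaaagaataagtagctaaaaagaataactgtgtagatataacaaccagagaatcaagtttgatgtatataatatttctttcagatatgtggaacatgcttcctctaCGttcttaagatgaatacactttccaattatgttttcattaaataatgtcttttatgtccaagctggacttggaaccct
Tas2r134: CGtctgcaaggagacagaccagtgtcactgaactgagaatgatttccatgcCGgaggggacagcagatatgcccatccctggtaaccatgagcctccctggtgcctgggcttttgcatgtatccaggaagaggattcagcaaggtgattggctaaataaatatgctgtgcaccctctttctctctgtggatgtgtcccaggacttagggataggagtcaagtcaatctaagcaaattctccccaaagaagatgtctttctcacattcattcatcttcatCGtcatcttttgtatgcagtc
Tas1r1: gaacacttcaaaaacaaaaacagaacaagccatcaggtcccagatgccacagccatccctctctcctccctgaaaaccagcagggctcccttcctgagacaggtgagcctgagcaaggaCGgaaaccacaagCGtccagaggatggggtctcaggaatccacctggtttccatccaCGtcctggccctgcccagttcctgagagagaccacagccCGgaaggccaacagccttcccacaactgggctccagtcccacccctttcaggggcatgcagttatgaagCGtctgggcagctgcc

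The receptors lay at the bottom of the intensity range. The mean of the 9 arrays had a median of 23.5 over the receptors, against 129.3 over all genes, and 221 of 229 receptors were below the all-gene median. That receptor median stands at the 5.33 percentile of all genes. On every one of the 9 arrays, 215 receptors were below the median gene of that array, and 4 were above it on all 9. An array intensity is a linear value that includes non-specific binding and differs between probe sets by their affinity, so it ranks signals and not amounts of transcript, and no detection call was used here. In such bulk tissue, fewer cells of a type and less RNA per cell cannot be told apart.

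The Taar, Tas2r and Vmn1r ranges overlapped, while the 3 Tas1r genes lay above every Taar gene. Tas1r genes had a median of 103.4 (range 81.7 to 117.6, n = 3 genes), Taar genes 40.9 (1.86 to 79.3, n = 15), Tas2r genes 31.3 (9.41 to 87.1, n = 35) and Vmn1r genes 21.3 (0.999 to 2177, n = 176). The 1105 odorant receptor genes (Olfr), the large receptor family of the main olfactory epithelium, had a median of 30.5, and the 109 type 2 vomeronasal receptor genes (Vmn2r) had 25.2. The related Fpr-rs receptors, formyl peptide receptor-like genes of the vomeronasal organ, ranged from 4.12 to 28.7 in the 3 of 4 members measured.

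**Figure D1:**
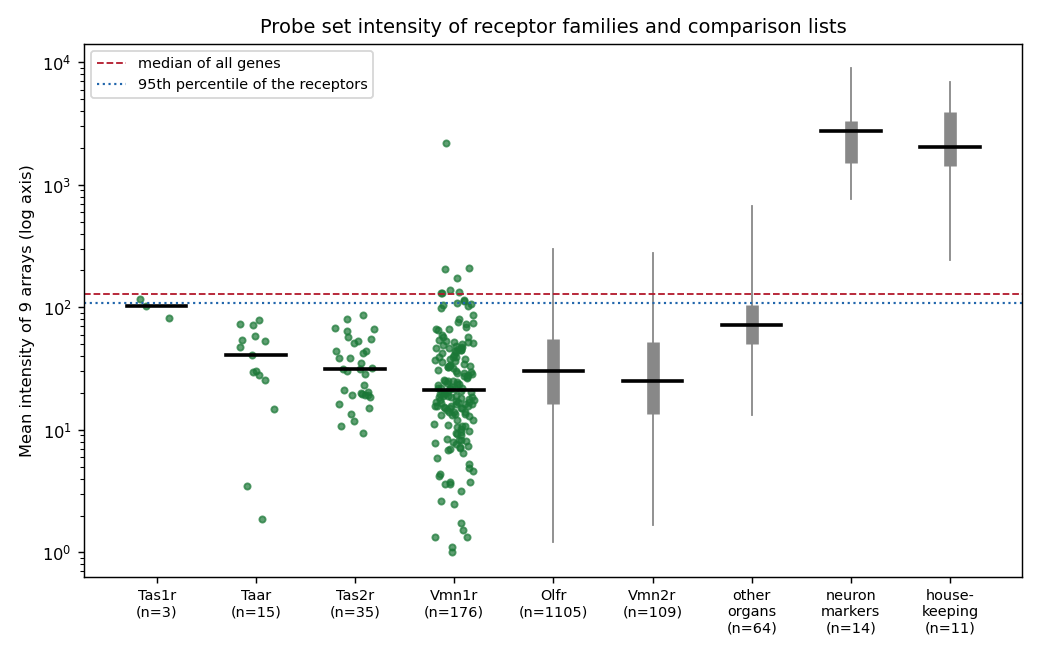
Mean intensity of 9 arrays (log axis) for each gene of the 4 receptor families (points, black line at the median) and for comparison lists (thin line lowest to highest, thick bar the middle 50% of genes, black line at the median). Vmn1r233 at 2177 stands alone above the receptors, while the neuron markers and housekeeping genes all lie above both the receptor 95th percentile of 108.5 and the all-gene median of 129.3.

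Markers of cortical neurons and of most glia were brighter than most receptors. Markers of pyramidal and other neurons had a median of 2760 (14 of 15 measured) and 0 of the 14 lay at or below 108.5, the 95th percentile of the receptors. Medians were 711 for interneuron markers, 779 for astrocyte markers, 376 for oligodendrocyte markers, 332 for microglia markers, 177 for endothelial markers and 122.5 for choroid plexus markers, and 2025 for housekeeping genes. In contrast, 64 measured genes of 5 lists known from liver, sperm, exocrine pancreas, skin and eye had a median of 72.2, and 48 of the 64 lay at or below 108.5. Over all genes 9682 of 22180 (43.65%) did. The receptor median of 23.5 was below that of the other-organ genes as well, with 5.33% of all genes at or below it. Lists beyond the 4 receptor families were textbook choices.

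Genes that work downstream of the receptors were split between bright and dim. Of the taste transduction list, 12 of 16 genes were measured, with a median of 79.7, and 10 of the 12 were at or below 108.5. Of the vomeronasal and olfactory transduction list, 17 of 18 were measured, with a median of 143.3 and 6 at or below 108.5. The G protein subunits Gnao1 (mean intensity 4044) and Gnai2 (997), which vomeronasal neurons share with cortical cells, were bright. Trpc2, the vomeronasal transduction channel, was at 126.0, Omp, the marker of mature olfactory neurons, at 91.5, and Cnga2, the olfactory cyclic nucleotide-gated channel, at 37.4. The olfactory sensory neuron markers as a list (6 of 8 measured) had a median of 60.4, with 5 of the 6 at or below 108.5.

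One receptor was bright. Vmn1r233 read 2016, 2163 and 2329 on the ketamine arrays, 2119, 2105 and 2153 on the sleep-deprived arrays and 2323, 2183 and 2203 on the saline arrays, at the 98.9 percentile of genes. Its differences were within their standard errors: -0.05 ± 0.09 (log2, SE) for ketamine against saline, with a sign that changed without ketamine array 1 (0.0056), and -0.07 ± 0.09 for sleep deprivation against saline. A different probe set of the same gene, with a mean of 27.8 and a range of 21.6 to 35.5 over the 9 arrays, lay in the range of the other receptors. The neighbouring genes in RefSeq are Ppp2r1a, which encodes a scaffold subunit of protein phosphatase 2A and had a mean of 3652, and Zfp160 with 145.6, and the pseudogene Vmn1r-ps145 is nearest. Whether the bright probe set reads a transcript of Vmn1r233 or of a neighbour was not tested.

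Of the other genes with a pair of probe sets, Vmn1r208 had means of 131.3 and 22.7, and Vmn1r212 had 27.2 and 8.66. The choice of the brighter probe set therefore set the intensity of these genes.

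**Figure D2:**
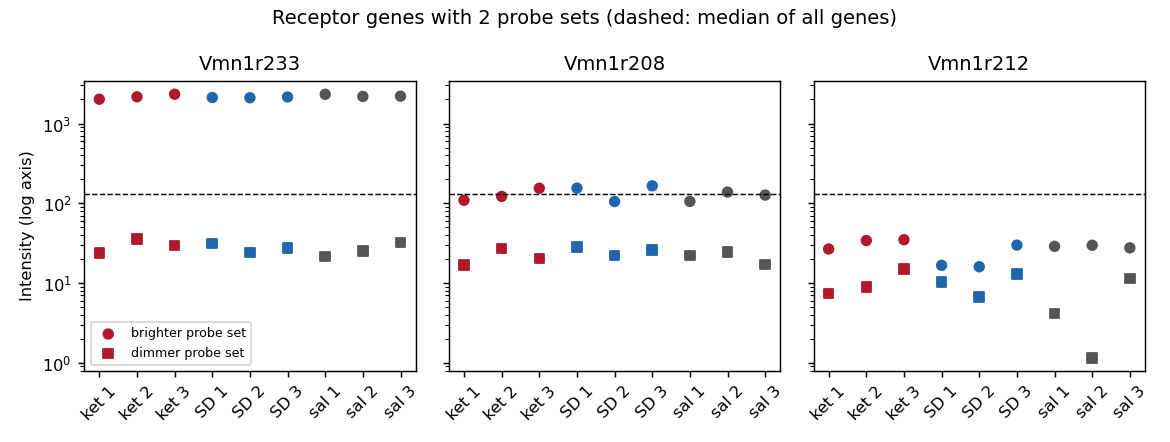
Intensity on each array (log axis) of the brighter probe set (circles) and the dimmer probe set (squares) of the 3 receptors with 2 probe sets, ketamine (ket) left, sleep deprivation (SD) in the middle and saline (sal) right, with the all-gene median dashed. The probe sets of Vmn1r233 have means of 2177 and 27.8.

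After Vmn1r233, the brightest Vmn1r genes were Vmn1r159 (207.8), Vmn1r43 (206.9), Vmn1r34 (174.6), Vmn1r2 (139.2) and Vmn1r36 (133.0). With Vmn1r9 (131.7) and Vmn1r208 (131.3), these made up the 8 receptors above the all-gene median, and Tas1r1 (117.6) was the brightest below it. Vmn1r159 is also named in a probe set with several symbols, so the origin of its signal is less certain. Vmn1r17 (0.999), Vmn1r37 and Vmn1r192 (1.34) were the dimmest. Vmn1r17 read 3.92, 2.42 and 0.00103 on the ketamine arrays, against 0.000749, 0.832 and 0.000767 on the sleep-deprived arrays and 0.299, 0.550 and 0.972 on the saline arrays, and the groups overlapped. In all, 21 receptors fell below 1 on at least 1 array.

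Among bitter receptors, Tas2r134 (87.1), Tas2r126 (80.8), Tas2r143 (67.4), Tas2r138 (67.0), Tas2r119 (63.8) and Tas2r135 (57.2) were brightest, and Tas2r117 (9.41), Tas2r123 (10.9) and Tas2r140 (11.9) were dimmest. The trace amine receptors ran from Taar4 (79.3), Taar5 (73.8) and Taar3 (71.3) through Taar1 (57.9) down to Taar7a (3.49) and Taar8b (1.86). Taar1 read 55.4, 55.8 and 71.1 on the ketamine arrays, 51.6, 51.5 and 68.4 on the sleep-deprived arrays and 51.6, 49.6 and 65.8 on the saline arrays. The third array was the highest in each group, and the groups overlapped.

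Dim values were noisier in relative terms. The coefficient of variation was taken as the pooled within-group SD divided by the mean of the 9 arrays. Its median was 23.4% for the receptors, against 8.44% for the other genes above the all-gene median. The median residual SD on the log2 scale was 0.18 against 0.12. Differences below are on the scale of log2(intensity + 16). The offset of 16 damps the change of dim genes, since 31.0% of the receptors but 3.07% of all genes had a mean below 16. With an offset of 1 the median residual SD of the receptors was 0.33, and with an offset of 64 it was 0.088.

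Before any group comparison, the median of the receptors shifted from array to array, while agreement between single genes was not measured. The median deviation of the receptors from each gene's own mean was -0.034, -0.016 and 0.11 (log2) on the ketamine arrays. It was -0.023, -0.13 and 0.088 on the sleep-deprived arrays and 0.028, -0.029 and -0.0034 on the saline arrays. On sleep-deprived array 1 the families differed (Vmn1r 0.0035, Tas2r -0.067, Taar -0.11, Tas1r -0.034). Ketamine array 3 was the highest, sleep-deprived array 2 the lowest, and sleep-deprived array 3 was also high, so the spread inside the ketamine group and inside the sleep-deprived group was wider than inside the saline group. The other genes below the all-gene median gave 0.11, -0.12 and 0.069 on those 3 arrays, while those above it gave -0.12, 0.12 and -0.032. Dim and bright genes deviated in opposite directions on these arrays. Quantile normalization, which forces all arrays to 1 distribution, narrowed the range of the receptor deviations to 0.15, against 0.23 as deposited, and left ketamine array 3 highest (0.079) and sleep-deprived array 2 lowest (-0.073).

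**Figure D3:**
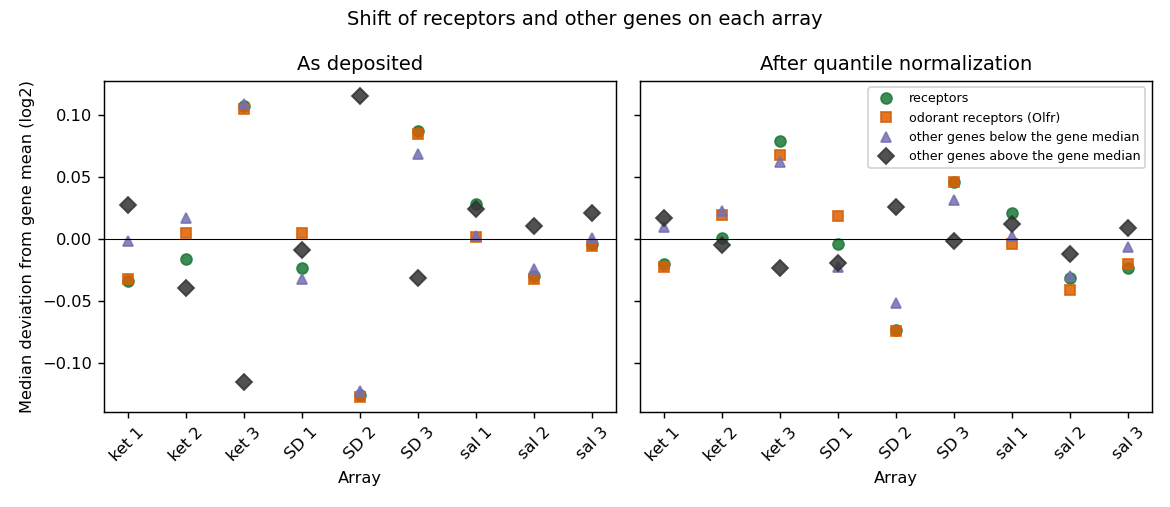
Median deviation (log2) from each gene's mean over 9 arrays for receptors, odorant receptors and the other genes below and above the all-gene median, as deposited (left) and after quantile normalization (right), with ketamine (ket), sleep-deprived (SD) and saline (sal) arrays from left to right. Receptors, odorant receptors and dim genes lie close together, and the genes above the median lie on the opposite side of 0 on ketamine array 3 (-0.12) and sleep-deprived array 2 (0.12).

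Ketamine was compared with saline to ask whether the receptors differed between these groups at collection. With limma and Benjamini-Hochberg adjustment over all genes, 0 of 229 receptors had an adjusted p under 0.05, and the share called over all 22180 genes was 0%. The median difference was 0.025 (log2) over the receptors, against -0.015 over all genes, 0.048 over the other genes below the all-gene median and -0.060 over those above it. After quantile normalization it was 0.013 over all genes. The family medians were then 0.026 (Vmn1r), -0.0042 (Tas2r), 0.077 (Taar) and 0.089 (Tas1r). Among the receptors 131 had a higher mean after ketamine and 98 a lower one (57.2% higher, against 45.4% of all genes). The share higher was 56.8% of the other genes at or below the receptor median and 64.3% of those below the all-gene median. The central 95% of receptor differences ran from -0.29 to 0.32. By construction 5.24% of the receptors lay outside that interval, against 2.15% of the other 21951 genes. Of the other genes at or below the receptor median of 23.5, 7.03% lay outside, and 3.00% of those at or below the receptor 95th percentile. Without ketamine array 3 the receptor median was -0.024, and with array weights, which gave ketamine array 2 a weight of 7.92, limma called 18 receptors and 1439 of all genes.

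At an unadjusted limma p under 0.05 there were 20 receptors (8.73%), where all genes gave 4.57%. Of these, 9 were higher, against 2.21% of all genes, and 11 were lower, against 2.35%. The share was 8.90% of the 1067 other genes at or below the receptor median of 23.5, 5.55% of the 9465 other genes at or below the receptor 95th percentile of 108.5, and 7.33% of the odorant receptors. These sets overlap, here and in the comparisons below. The 1067 genes include 419 odorant receptor and 50 Vmn2r genes, and the 9465 include 1040 and 100. The ketamine and saline arrays did not overlap for 28 receptors (12.2%), against 14.4% of all genes. Ketamine lay above saline for 16 of the 28 (6.48% of all genes) and below it for 12 (7.89% of all genes). By family, the 20 receptors at an unadjusted p under 0.05 were 13 of 176 Vmn1r, 6 of 35 Tas2r and 1 of 15 Taar genes, with 0 of 3 Tas1r genes. At an offset of 64 the count was 2 (0.873%, against 5.11% of all genes), and with limma-trend, which lets the prior spread follow intensity, it was 6 (2.62%, against 4.92%). Under both settings the receptor share was below that of all genes, where it was above with the offset of 16 and the usual prior.

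The individual differences with the smallest p were negative differences of dim genes, none of which passed the adjusted threshold. Tas2r139, a bitter receptor, read 17.4, 17.7 and 17.2 on the ketamine arrays, against 27.2, 24.2 and 25.5 on the saline arrays. The groups did not overlap, and the difference was -0.32 ± 0.09 (SE, limma adjusted p = 0.87). Tas2r123 read 6.88, 7.62 and 6.09 on the ketamine arrays and 10.6, 14.9 and 11.2 on the saline arrays, again without overlap, a difference of -0.30 ± 0.09. Vmn1r173 read 1.28, 4.15 and 0.0152 on the ketamine arrays, against 5.45, 12.0 and 7.27 on the saline arrays, a difference of -0.44 ± 0.12. Here every ketamine value was below every saline value, all at intensities under the offset.

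Of the largest positive differences, Tas2r102 read 23.2, 16.4 and 26.3 on the ketamine arrays and 13.2, 10.8 and 13.0 on the saline arrays (0.41 ± 0.19), and these groups did not overlap. Vmn1r174 read 51.6, 48.3 and 71.8 on the ketamine arrays and 37.9, 44.4 and 41.6 on the saline arrays (0.34 ± 0.18), also without overlap. Vmn1r26 (0.36 ± 0.14), Vmn1r194 (0.34 ± 0.15) and Vmn1r30 (0.32 ± 0.19) had groups that overlapped, as did Vmn1r7 (-0.35 ± 0.12) and Taar7a (-0.32 ± 0.14) on the negative side. The lowest limma adjusted p of any receptor was 0.87.

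The sweet and umami subunits were highest on 1 array. Tas1r1 read 118.5, 118.1 and 149.0 on the ketamine arrays, 113.9, 96.5 and 124.6 on the sleep-deprived arrays and 109.4, 111.6 and 117.1 on the saline arrays. Its ketamine values were all above its saline values, with a difference of 0.16 ± 0.11 (limma adjusted p = 0.87). Tas1r2 and Tas1r3 differed by 0.09 ± 0.09 and 0.03 ± 0.10 between ketamine and saline, with groups that overlapped, and the Tas1r3 difference was -0.04 without ketamine array 3 and -0.02 without saline array 3. For all 3 genes ketamine array 3 was the highest of the 9 and sleep-deprived array 2 the lowest. Without ketamine array 3 the median difference of the 3 genes was 0.03, against 0.09 with it.

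Sleep deprivation was compared with saline on the same terms, and the comparison shares the saline arrays with the one above. Again 0 of 229 receptors passed a limma adjusted p of 0.05, with 0% of all 22180 genes. The median difference was -0.010 over the receptors and -0.0088 over all genes. In the mean 105 receptors were higher and 124 lower (45.9% higher, against 46.6% of all genes). The receptor median was 0.0039 after quantile normalization (-0.0043 over all genes) and 0.035 without sleep-deprived array 2. The central 95% ran from -0.37 to 0.32, and 1.16% of the other genes lay outside. Of the other genes at or below the receptor median 4.78% did, and 1.50% of those at or below the receptor 95th percentile. At an unadjusted limma p under 0.05 there were 22 receptors (9.61%), against 3.52% of all genes, 7.87% of the other genes at or below the receptor median and 4.23% of those at or below the receptor 95th percentile. Of these, 7 were higher, against 1.8% of all genes, and 15 lower, against 1.72%. The arrays did not overlap for 16 receptors (6.99%), against 7.11% of all genes. Sleep deprivation lay above saline for 7 of them (3.57% of all genes) and below it for 9 (3.54% of all genes).

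Vmn1r33 and Vmn1r20 had the largest differences above 0 among receptors whose groups did not overlap. Vmn1r33 read 14.3, 14.8 and 11.2 on the sleep-deprived arrays, against 6.63, 5.65 and 7.33 on the saline arrays, a difference of 0.39 ± 0.09 (limma adjusted p = 0.92). Vmn1r20 read 39.8, 31.4 and 26.7 on the sleep-deprived arrays and 23.6, 18.6 and 20.6 on the saline arrays, a difference of 0.39 ± 0.11. Vmn1r210 also lay apart (0.37 ± 0.12), while Vmn1r148 (0.40 ± 0.28) and Tas2r129 (0.39 ± 0.17) overlapped.

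On the negative side, Vmn1r173 read 2.26, 0.00492 and 1.07 on the sleep-deprived arrays, against 5.45, 12.0 and 7.27 on the saline arrays (-0.50 ± 0.12). Its sleep-deprived and ketamine values were both below the saline values, and both differences use the same 3 saline arrays. The bitter receptor Tas2r144 read 21.0, 33.5 and 34.8 on the sleep-deprived arrays and 38.5, 51.1 and 44.7 on the saline arrays (-0.42 ± 0.13), without overlap. Vmn1r123 (-0.42 ± 0.14), Vmn1r41 (-0.34 ± 0.09) and Vmn1r200 (-0.31 ± 0.10) did not overlap either. The most negative differences belonged to overlapping groups and noisy genes: Vmn1r80 (-0.73 ± 0.28), Vmn1r59 (-0.59 ± 0.28) and Vmn1r74 (-0.53 ± 0.25). Vmn1r74 read 12.7, 0.0127 and 27.9 on the sleep-deprived arrays, against 22.6, 25.6 and 22.0 on the saline arrays, so that sleep-deprived array 2 stood far below the others.

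Ketamine was also compared with sleep deprivation directly, which uses no saline array. Of the receptors, 0 of 229 passed a limma adjusted p of 0.05, with 0% of all 22180 genes. The median difference was 0.040 over the receptors, against -0.012 over all genes, 0.068 over the other genes below the all-gene median and -0.063 over those above it. After quantile normalization it was 0.015 over all genes. The family medians were then 0.026 (Vmn1r), 0.016 (Tas2r), 0.019 (Taar) and 0.12 (Tas1r). The receptor median was -0.060 when ketamine array 3 and sleep-deprived array 2 were both left out, so its sign was reversed without those arrays. That setting was chosen after seeing the data. At an unadjusted limma p under 0.05 there were 29 receptors (12.7%), against 9.48% of all genes, 14.4% of the other genes at or below the receptor median and 11.6% of those at or below the receptor 95th percentile. Of these, 18 were higher after ketamine, against 5.1% of all genes, and 11 lower, against 4.38%. The arrays did not overlap for 23 receptors (10.0%), against 10.1% of all genes. Ketamine lay above sleep deprivation for 10 of them (4.53% of all genes) and below it for 13 (5.54% of all genes).

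Vmn1r33 had the smallest p of any receptor in the 3 comparisons. It read 5.20, 4.74 and 6.30 on the ketamine arrays, against 14.3, 14.8 and 11.2 on the sleep-deprived arrays, a difference of -0.46 ± 0.09 (limma unadjusted p = 0.00018, adjusted p = 0.24). All its ketamine values were below all its sleep-deprived values, and every one of its 9 values was under the offset of 16. Vmn1r20 read 17.1, 18.1 and 20.0 on the ketamine arrays and 39.8, 31.4 and 26.7 on the sleep-deprived arrays (-0.49 ± 0.11), also without overlap. Tas2r123 (-0.37 ± 0.09) and Tas2r139 (-0.33 ± 0.09) did not overlap either, with Tas2r139 at 17.4, 17.7 and 17.2 on the ketamine arrays and 28.9, 24.6 and 24.9 on the sleep-deprived arrays. Vmn1r9 (-0.36 ± 0.16) and Vmn1r184 (-0.36 ± 0.14) overlapped.

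In the other direction, Tas2r134 read 101.8, 92.3 and 118.1 on the ketamine arrays, against 61.7, 63.9 and 75.3 on the sleep-deprived arrays (0.53 ± 0.12, limma adjusted p = 0.32), and the groups lay apart. Its saline values of 101.5, 74.9 and 94.4 spanned the gap. Vmn1r85 read 27.8, 32.0 and 30.3 on the ketamine arrays and 15.3, 10.3 and 23.9 on the sleep-deprived arrays (0.52 ± 0.13), without overlap. Vmn1r59 had the largest difference (0.83 ± 0.28), with 36.9, 64.1 and 45.6 on the ketamine arrays and 14.9, 31.8 and 15.4 on the sleep-deprived arrays. Its saline values of 57.5, 14.9 and 53.7 covered nearly that whole span. Vmn1r80 (0.63 ± 0.28), Vmn1r74 (0.52 ± 0.25), Vmn1r18 (0.50 ± 0.16) and Vmn1r212 (0.39 ± 0.13) overlapped.

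**Figure D4:**
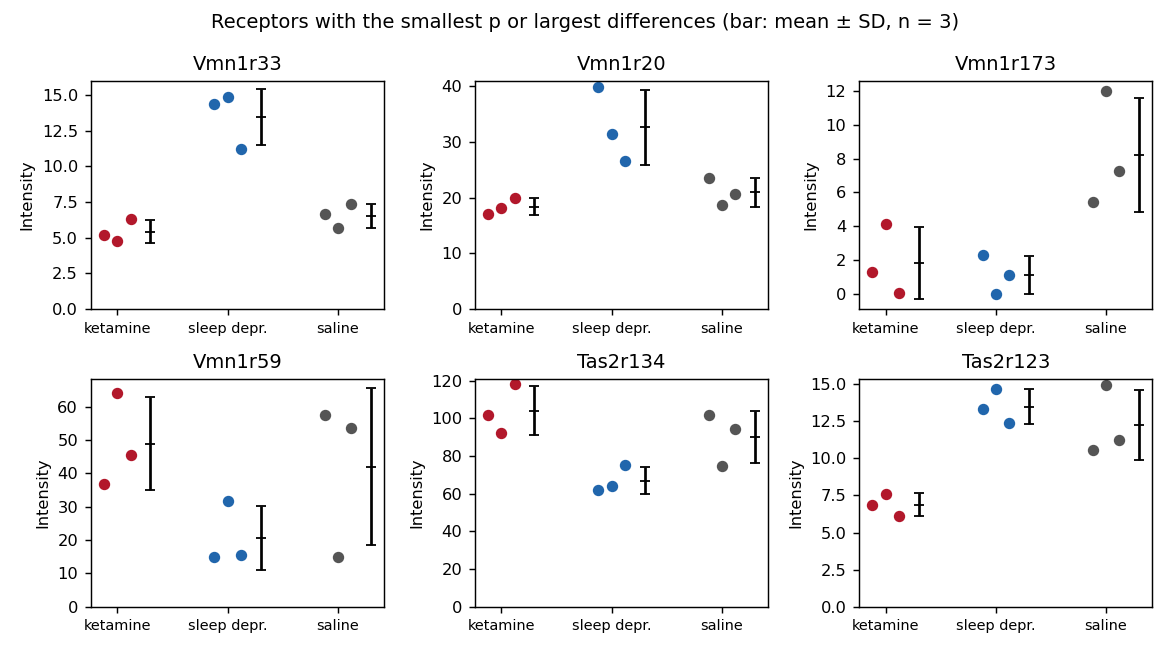
Intensity on each array for 6 receptors, chosen for small p or large differences, with bars at the mean ± SD of n = 3 arrays and ketamine left, sleep deprivation in the middle and saline right. Vmn1r33 lies between 11.2 and 14.8 on the sleep-deprived arrays and between 4.74 and 7.33 on the others, while the groups of Vmn1r59 are wide.

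Without sleep-deprived array 3, limma called 9 of 229 receptors at an adjusted p under 0.05 between ketamine and sleep deprivation, with 214 of all 22180 genes. Among them were Vmn1r33, Vmn1r20, Vmn1r85, Vmn1r18, Vmn1r212, Tas2r134 and Taar7e. With array weights the calls were 2 of 229 receptors, Vmn1r33 and Vmn1r20, with 42 of all 22180 genes. Sleep-deprived array 3 was among those whose dim genes lay high (0.088 for the receptors), and without it that group held 2 arrays. With all 3 sleep-deprived arrays and equal weights the count was 0. The part of the array's own deviation in these calls was not tested.

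**Figure D5:**
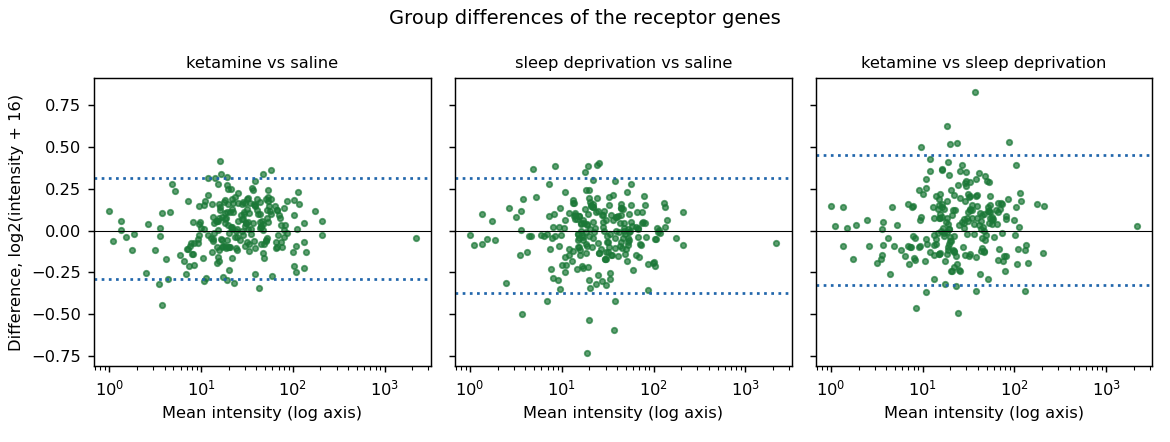
Difference on the log2(intensity + 16) scale against mean intensity (log axis) for the 229 receptors in the 3 comparisons, first-named group minus second, with dotted lines at the central 95% of receptors. The dotted lines lie at -0.29 and 0.32 for ketamine against saline, -0.37 and 0.32 for sleep deprivation against saline and -0.32 and 0.45 for ketamine against sleep deprivation.

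The genes downstream of the receptors gave no call in any comparison (limma adjusted p under 0.05: 0 of 12 taste and 0 of 17 vomeronasal and olfactory transduction genes). An unadjusted p under 0.05 was reached by 0 of the 12 taste genes in any comparison, and between ketamine and sleep deprivation by 3 of the 17 vomeronasal and olfactory genes (17.6%, against 9.48% of all genes), none past the adjusted threshold. Omp read 96.4, 101.7 and 103.6 on the ketamine arrays and 73.6, 78.1 and 95.7 on the sleep-deprived arrays, a difference of 0.25. Gng8, a G protein gamma subunit of olfactory and vomeronasal neurons, differed by 0.23, and Ric8b, a chaperone of G protein alpha subunits, by -0.23. The genes of other organs had medians of 0.10 for ketamine against saline (55 of 64 higher), -0.0092 for sleep deprivation against saline and 0.12 for ketamine against sleep deprivation (53 of 64 higher). These genes, like the receptors, lie mostly below the all-gene median, where the other genes had medians of 0.048, -0.020 and 0.068 in those comparisons. Of the other genes there, 64.3% were higher for ketamine against saline and 66.7% for ketamine against sleep deprivation. Over all genes the shares were 45.4% and 47.0%.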

How the data were processed

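Total RNA of mouse cortex was measured on 9 Affymetrix arrays, 3 per group. The submitters' processing notes name Affymetrix Expression Console 1.1.1 and PLIER 2.0, which summarises the probes of a probe set. The table deposited by the authors holds linear intensity values of 41345 probe sets. What background correction and normalization between arrays preceded it, and on which genome build, is not given in the sources used here. Medians of the 9 arrays ranged between 97.7 and 106.2, 0 pairs of arrays were identical, and the number of arrays limits the precision.

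Probe sets with 1 gene symbol in the platform annotation (23521) gave 22180 genes, the brightest probe set per gene. Those with several symbols (1814) or none (16010) were not tested. The fit used log2(intensity + 16) of the authors' intensities in limma 3.58.1 (R 4.3.3, lmFit and eBayes), all 9 arrays in 1 fit, with Benjamini-Hochberg adjustment over all genes at 0.05. How this fit behaves when genes move together from array to array was not tested. Members and lists were chosen with earlier results of these data known. Named were all Tas1r genes, the 6 brightest and 3 dimmest Tas2r and Vmn1r genes, and per comparison the 5 largest differences each way and those with unadjusted p under 0.01. Any Taar gene could be named, and only some were. Array weights, limma-trend, offsets of 1 and 64, other normalization, probe set choice, a filter on dim genes, a replicate block and removal of each array were alternatives. Motif windows came from RefSeq (GRCm38.p6), 1 per gene.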

Additional observations from a re-analysis of the deposited data

How the results depend on the processing

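Of 41 named receptor differences under 21 alternatives, 808 values kept sign and side of the threshold and 6 changed sign, all for ketamine against saline. They were Vmn1r233 (0.028 for the mean over probe sets, 0.0056 without ketamine array 1) and Tas1r3 (-0.053 with array weights, -0.038 without ketamine array 3 and also without both outermost arrays, -0.023 without saline array 3). Leaving out each array gave -0.098 to 0.0056 for Vmn1r233 and -0.038 to 0.10 for Tas1r3. A further 12 values came to pass an adjusted p of 0.05, with array weights or without sleep-deprived array 3. Most of these differences were named for their size or small p in these same data, so a kept sign was largely fixed beforehand. limma-trend, the replicate block and removal of an array of the uncompared group cannot change a difference. Dim receptors had no value when the dimmest genes were left out. limma called 18 receptors between ketamine and saline and 2 between ketamine and sleep deprivation with array weights, which gave ketamine array 2 a weight of 7.92 and, over all genes, called 1439 and 42. Leaving out each array gave 0 to 0, 0 to 0 and 0 to 9 called receptors (in the order ketamine and sleep deprivation each against saline, then ketamine against sleep deprivation). It gave 11 to 23, 15 to 38 and 21 to 57 receptors at an unadjusted p under 0.05, where all arrays gave 20, 22 and 29. Those counts were 2, 7 and 11 with an offset of 64 (0.873%, 3.06% and 4.80%, against 5.11%, 3.53% and 10.02% of all genes, so below all genes, where an offset of 16 had the receptors above). They were 0, 1 and 3 with the dimmest genes left out (the lowest 7393 of 22180), when 19 receptors were left, which by itself lowers the count. limma-trend gave 6 and 13 in the comparisons with saline (2.62% and 5.68%, against 4.92% and 3.63% of all genes). Array weights gave 78 for ketamine against saline and 67 for ketamine against sleep deprivation (34.1% and 29.3%, against 27.4% and 18.7% of all genes). The cause was not tested. The median difference of ketamine against sleep deprivation was -0.029 with array weights and -0.060 without the outermost arrays (ketamine array 3, sleep-deprived array 2). For ketamine against saline the median was -0.014 with array weights and -0.012 without the dimmest genes. Leaving out each array gave -0.024 to 0.043, -0.064 to 0.035 and -0.023 to 0.066 for the medians and 5.28 to 5.31 for the receptor level, which was 5.29 on the log2 scale. That level was 4.56 with an offset of 1, 6.45 with 64 and 7.03 without the dimmest genes, as the offset and the filter fix it. With the replicate number as a block the counts were 23, 27 and 37 at an unadjusted p under 0.05 and 0 called in each. Same-numbered deviations correlated at -0.20 to 0.44 and differently numbered ones at -0.51 to 0.54, so these correlations showed no pairing by number. Whether the number marks a batch was not tested. Intensities under the offset limit the 71 receptors (31.0%) with a mean below 16.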

Other observations

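Receptor transcripts of near-identical sequence also share probe sets. Of the probe sets with several symbols, 44 named at least 1 receptor and 28 named receptors only, with 2 to 20 symbols each and 20 distinct rows of values among the 28. Their mean intensities ran from 7.22 to 86.5 with a median of 68.9, and 0 of 28 exceeded the all-gene median of 129.3. Their median differences were -0.031 for ketamine against saline, -0.071 for sleep deprivation against saline and 0.018 for ketamine against sleep deprivation. Of the single-symbol Vmn1r genes, 27 also appeared in such shared probe sets and had a median intensity of 24.9, against 20.9 for the other 149, so which of these paralogues a signal came from is uncertain.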
